A study of Rattus norvegicus with 2 samples.

Results

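The miR-146 family of the rat consists of miR-146a and miR-146b, close copies of one microRNA (miRNA) made from separate genes. Its members were chosen by name, as the array features rno-miR-146a and rno-miR-146b, and they are 2 of the 350 rat miRNAs measured. Levels were compared between uninjured carotid artery of male Sprague-Dawley rats and carotid artery taken 10 days after balloon injury, to see which miRNAs differ in the injured vessel. In this model a balloon drawn through the vessel removes the endothelium and overstretches the media, and a neointima of smooth muscle cells grows over the following weeks. The animals weighed about 250 g, per the labels, which name no transgene or drug and do not say whether RNA of several rats was pooled. There was 1 array per group, labelled with Cy3, so no value below has a replicate error, no test was possible, and every difference is one between these 2 arrays.

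miR-146a and miR-146b are brakes on innate immune signalling. Toll-like and interleukin-1 receptors activate the transcription factor NF-kB, NF-kB raises the transcription of the miR-146a gene, and the mature miRNA represses the adaptor proteins IRAK1 and TRAF6 of the same receptors, which closes a negative feedback loop. miR-146b carries the same seed and can repress the same messages, but its gene has its own promoter. In arteries the family is known for restraining the activation of endothelium by cytokines, and miR-146a has also been tied to the growth of smooth muscle cells.

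The sequences are shown because they define the family: the capitals mark the seed, bases 2 to 8 counted from the 5′ end, which selects the target messages. The array names carry no arm, and each was taken to be the 5p strand, the strand that the plain miR-146 names denote. Sequences and positions are those of RefSeq on build GRCr8, in which miR-146a lies at chr10:28350053-28350074 on the minus strand and miR-146b at chr1:255144874-255144897 on the plus strand.
rno-miR-146a-5p: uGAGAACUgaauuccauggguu
rno-miR-146b-5p: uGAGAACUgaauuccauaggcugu
Both share the seed GAGAACU, and no other of the 693 rat mature miRNAs in that table has these bases at positions 2 to 8. Their first 17 bases are identical. Going from miR-146a to miR-146b, the substitutions are G18A and U21C, counted from the 5′ end, and miR-146b has 2 further bases at its 3′ end. The next most similar rat mature miRNA in the table was 8 edits away from miR-146a and 7 edits away from miR-146b, against 3 edits between the members themselves. Whether the array's probes separate the members from each other was not tested.

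The hairpin precursors show how far the genes have otherwise diverged. Here the capitals mark the mature 5p strand, at bases 17 to 38 of the 95-base Mir146a hairpin (chr10:28349996-28350090, minus strand) and bases 15 to 38 of the 88-base Mir146b hairpin (chr1:255144860-255144947, plus strand).
Mir146a: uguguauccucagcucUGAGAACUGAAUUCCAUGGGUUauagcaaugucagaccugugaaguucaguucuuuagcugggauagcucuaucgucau
Mir146b: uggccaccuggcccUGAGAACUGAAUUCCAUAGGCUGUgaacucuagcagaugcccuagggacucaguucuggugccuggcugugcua
The hairpins are 38 edits apart over their whole length, against 3 edits between the mature 5p strands, and their 3p strands, 21 bases each, are 9 edits apart. By position, the Mir146a hairpin overlaps the long noncoding RNA gene LOC134480673, with Pttg1 and Slu7 as the nearest protein-coding genes on one side. The Mir146b hairpin overlaps the protein-coding gene C1h10orf95 and lies between Cuedc2 and Mfsd13a. Whether the hairpins are exonic or intronic in the overlapping genes was not analysed here.

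Both members were measured on both arrays, that is, their detection flag was 1, and both were brighter in the injured artery. miR-146b had a signal intensity of 14.6 in the uninjured artery and 81.0 in the injured one, as deposited and before any scaling. Scaled between the arrays at the 75th percentile of the miRNAs measured on both, it was 5.92-fold higher in the injured artery, a log2 ratio (injured minus uninjured, as throughout) of 2.565. miR-146a had signals of 74.7 and 120.2, was 1.71-fold higher, and had a log2 ratio of 0.77. So the paralog that was dimmer than most measured miRNAs in the uninjured artery had the larger difference. Brightness also depends on the probe, and the signals do not say which paralog is the more abundant.

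**Figure D1:**
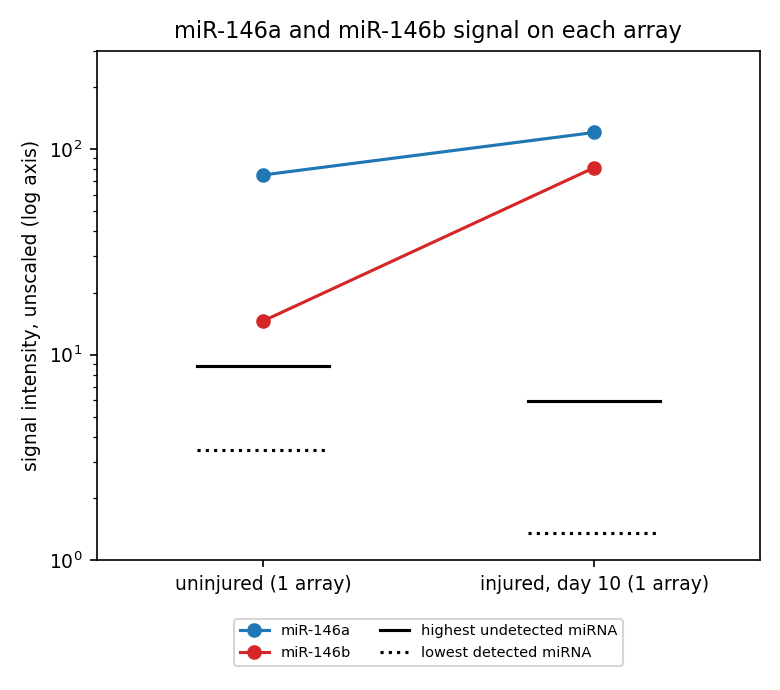
Unscaled signal intensity (log axis) of miR-146a and miR-146b on the uninjured and the injured array, 1 array each, with the highest signal of an undetected miRNA (solid line) and the lowest signal of a detected miRNA (dotted line) on that array. Both members lie above the solid line on both arrays, and miR-146b, at 14.6, is nearest to it on the uninjured array.

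The lower signal of miR-146b stood close to the level where detection ends. On the uninjured array the highest signal of an undetected miRNA was 8.84, and miR-146b was 1.65 times that level. On the injured array that level was 5.98, and miR-146b was 13.6 times as bright. miR-146a was 8.44 times and 20.1 times the level on the same arrays, so its ratio rests on signals well clear of it. In order of brightness, miR-146b moved from place 133 of the 166 miRNAs detected in the uninjured artery to place 85 of the 184 detected in the injured artery, while miR-146a moved from place 76 to place 65. As a share of the summed signal of all 350 miRNAs, miR-146b went from 0.0152% to 0.0831% and miR-146a from 0.0782% to 0.123%.

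Against the other miRNAs, miR-146b was at the edge of the distribution and miR-146a in its upper part. Of the 158 miRNAs with a detected signal in both arteries, 20 passed 2-fold upwards after injury (12.7%) and 6 passed it downwards (3.8%), and their median log2 ratio was 0.14. Of the family, 1 of 2 members was at least 2-fold higher, namely miR-146b, which had the highest log2 ratio of the 158. miR-146a was at place 28. The 26 miRNAs detected only in the injured artery and the 8 detected only in the uninjured one were left out of this ranking, so some may differ more than miR-146b. At 1.5-fold, 40 of the 158 passed (25.3%), both members among them, and 82.8% of the other 157 miRNAs had a lower ratio than miR-146a. Relative to the median of the 158, which any common scaling factor leaves in place, miR-146b was 5.37-fold and miR-146a 1.55-fold higher.

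**Figure D2:**
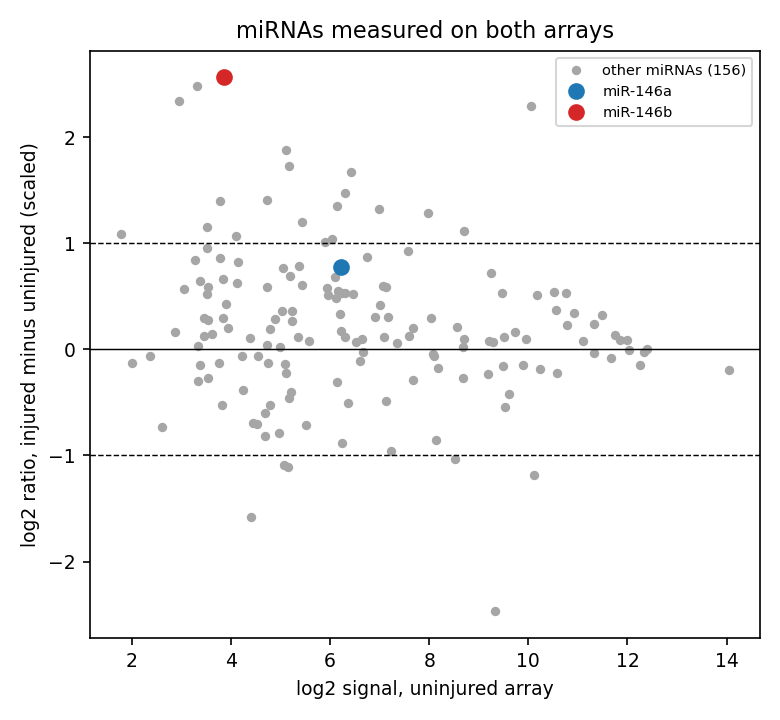
Log2 ratio (injured minus uninjured, scaled at the 75th percentile) against log2 signal on the uninjured array for the 158 miRNAs measured on both arrays, 1 point per miRNA, with dashed lines at 2-fold. miR-146b is the highest point, at a low uninjured signal, and miR-146a lies at 0.77 among many others.

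To see how far miRNAs of like brightness differed, each member was also set beside the miRNAs of most similar uninjured signal, the 5 next dimmer and the 5 next brighter among those measured on both arrays. Around miR-146b these had uninjured signals from 13.7 to 17.8 and log2 ratios from -0.53 (miR-224) to 1.40 (miR-379), with a median of 0.64. miR-146b has the highest ratio of the 158, so none of the 10 could exceed it. Around miR-146a they had signals from 70.7 to 79.1 and log2 ratios from -0.88 (miR-188) to 1.47 (miR-221), with a median of 0.43, and 2 of the 10 exceeded miR-146a. These neighbours are different miRNAs and not replicates.

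The members differed from each other in their ratios as well. The log2 ratio of miR-146b exceeded that of miR-146a by 1.79, which is 3.46-fold, and a common scaling factor cancels in this difference. With 1 array per group it carries no error, and no test of it could be run.

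The size of each member's difference depended on how the arrays were aligned. The gap between the members was 3.46-fold in the 8 settings with a common scaling factor or none, in which it cannot change. It was 3.47-fold with quantile normalization and 2.41-fold with 10 units added to each signal. Over the main setting and 9 alternatives miR-146b ranged from 3.92-fold to 5.92-fold higher, past 2-fold in each, while the share of all miRNAs past 2-fold ranged from 4.43% to 12.7%. miR-146a ranged from 1.14-fold to 1.71-fold higher and reached 2-fold in none. Its lowest value, a log2 ratio of 0.18, came from aligning the 6 control features that were detected on both arrays, all of which were 1.24-fold to 1.94-fold brighter on the injured array. miR-146a was also under 1.5-fold with the arrays aligned at their medians (1.26-fold), at the 75th percentile of all miRNAs (1.21-fold) or by quantile normalization (1.31-fold). Only quantile normalization and the 10 units added to each signal could reorder the miRNAs measured on both arrays, and in both miR-146b came after miR-21. The other 8 of these 10 settings keep the main order, so miR-146b had the highest ratio there by construction. In the authors' deposited table, a ratio without scaling, miR-146b stood at 5.57 and miR-146a at 1.61.

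**Figure D3:**
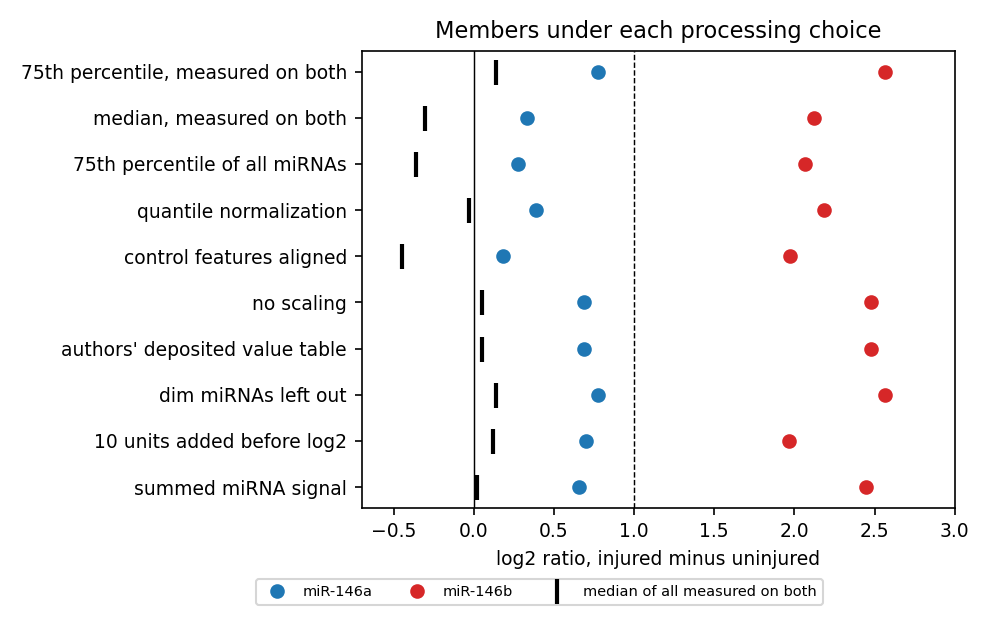
Log2 ratio (injured minus uninjured) of miR-146a (blue) and miR-146b (red) under the main setting (top line) and 9 alternatives, with a black bar at the median of the miRNAs measured on both arrays and a dashed line at 2-fold. miR-146b lies right of the dashed line and miR-146a left of it in every line, and both lie right of the black bar.

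Other miRNAs that Toll-like receptor or NF-kB signalling is known to induce did not all go the way of the family. The list held 8 names, of which miR-155 was not analysed here and miR-147 was measured on neither array. Among the 3 with a signal in both arteries, 2 passed 2-fold upwards and none passed it downwards, beside the 12.7% and 3.8% of all miRNAs given above, and their median log2 ratio was 1.28. miR-21, which NF-kB and AP-1 induce in inflamed and growing cells, went from a signal of 1065 to 4915 and was 4.90-fold higher. miR-31, induced by tumour necrosis factor in endothelium, was 2.44-fold higher with signals of 252 and 578, but it missed 2-fold when the alignment used the control features, the medians or else the 75th percentile of all miRNAs. miR-212 was 1.33-fold higher, with signals of 129 and 162. Its cluster partner miR-132, induced together with miR-146a in monocytes given bacterial lipopolysaccharide, was detected after injury alone, at a signal of 17.8 and at least 5.51-fold higher (2.14-fold if the highest undetected signal is taken as the floor). miR-9, which Toll-like receptor agonists induce in monocytes and neutrophils, and its other strand miR-9* were measured only in the uninjured artery. Their signals there were 7.43 and 12.9, which gave bounds of at least 2.60-fold and at least 5.11-fold lower after injury (1.17-fold and 2.02-fold with that higher floor). The list thus contained miRNAs on both sides, the lower side holding only miR-9 and miR-9*. These are also neuronal miRNAs, and the part of nerve tissue in their values was not tested. Of the 3 measured on both arrays, miR-146a lay above miR-212 only. miR-146b lay above each of them, as the highest ratio among all miRNAs measured on both arrays must.

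miRNAs known to restrain NF-kB signalling or the inflamed endothelium by other means than IRAK1 and TRAF6 had log2 ratios on both sides of 0, from -0.29 to 1.67. All 8 of that list were measured on both arrays. Of these, 1 passed 2-fold upwards and none downwards, beside 12.7% and 3.8% of all miRNAs, and the median log2 ratio was 0.38, beside 0.14 over all 158. The list median was negative when the arrays were aligned at their medians (-0.061), at the 75th percentile of all miRNAs (-0.12) or on the control features (-0.21), settings in which the median of all 158 moved down alike, to -0.30, -0.36 and -0.45. The member past 2-fold was miR-223, a myeloid miRNA, at 3.19-fold higher. miR-199a-5p, a repressor of the kinase IKKβ, was 1.65-fold higher, and miR-181b, which limits the nuclear import of NF-kB in endothelium, was 1.62-fold higher. Both were thus close to the 1.71-fold of miR-146a. miR-16 (log2 ratio of 0.54), let-7i, which represses the receptor TLR4 (0.23), miR-126, which represses the adhesion molecule VCAM1 (0.08), miR-125b-5p (-0.03) and miR-10a-5p, a repressor of endothelial NF-kB activation (-0.29), made up the rest. miR-146a lay above 7 of the 8. miR-146b lay above all 8, which its top place among the 158 fixed in advance.

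Most leukocyte markers had higher levels in the same injured sample, and leukocytes are known to express miR-146a. Of the 6 leukocyte markers listed, 5 were measured on both arrays and miR-155 was not analysed here. Of the 5, 3 passed 2-fold upwards and none downwards, beside 12.7% and 3.8% of all miRNAs. The upward count held in each of the scalings tried, in which 4.43% to 12.7% of all miRNAs passed upwards. Only miR-150 passed 2-fold downwards, when the control features or the 75th percentile of all miRNAs set the scale. In these settings 14.6% and 12.7% of all miRNAs did so. The signals of the 5 markers summed to 241 in the uninjured and 515 in the injured artery. All 5 were detected on both arrays, although miR-142-5p in the uninjured artery was little above the highest undetected signal of 8.84. The pan-leukocyte miR-142-5p was 5.61-fold higher (signals of 10.0 and 52.9), miR-142-3p from the same hairpin 3.67-fold (34.6 and 119) and the myeloid miR-223 3.19-fold (86.2 and 259). The lymphocyte miRNA miR-150 stood at a log2 ratio of -0.50 and miR-342-3p at 0.19. The log2 ratio of miR-146b was 0.89 above the leukocyte median of 1.67, and that of miR-146a was 0.90 below it. The part of leukocytes in the values of the family was not tested, and more cells of a type and more RNA per cell cannot be told apart in whole arteries.

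Markers of the vessel wall and of red cells did not go with the family. Of the endothelial hairpin, miR-126 had a log2 ratio of 0.08 and its other strand miR-126* one of -0.22, and together they gave 626 in the uninjured and 615 in the injured artery. All 5 miRNAs of the smooth muscle list had negative log2 ratios, from -1.58 for miR-1 to -0.19 for miR-143. miR-1 had signals of 21.2 and 6.64, the latter close to the injured array's highest undetected signal of 5.98. In the main setting 3 of the 5 were at least 2-fold lower, namely miR-1, miR-133a and miR-133b, beside 3.8% of all miRNAs. These 3 are also known from striated muscle, and which muscle they came from was not tested. With 10 units added to each signal 0 were, beside 1.27%. miR-143 and miR-145 fell short of 2-fold in the main setting, at 1.14-fold and 1.46-fold lower. The 5 markers summed to 18170 without and 14655 with injury, most of it from miR-143. All 5 were detected on both arrays. The erythroid miR-451 and miR-144 were 5.53-fold and 2.16-fold lower (1 of them past 2-fold with 10 units added), and their summed signal went from 677 to 125. The log2 ratio of miR-146a lay above every marker of these 3 lists. That of miR-146b could not do otherwise, being the highest of the 158 measured on both arrays. The part of these cells in the values of the family was not tested.

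**Figure D4:**
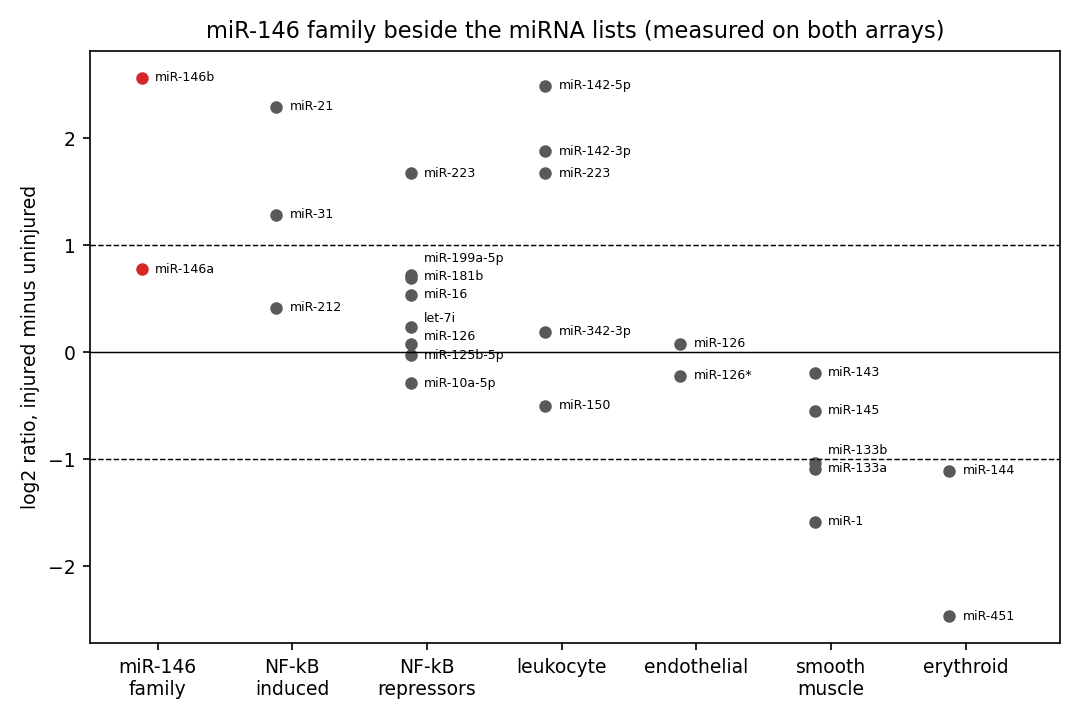
Log2 ratio (injured minus uninjured) of the miR-146 family (red) and of the listed miRNAs measured on both arrays (grey), 1 point per miRNA, with dashed lines at 2-fold. miR-146b at 2.565 and miR-142-5p at 2.49 are the highest points, and the smooth muscle and erythroid lists lie below 0.

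By their log2 ratio over the 2 arrays, the miRNAs most like miR-146b were miR-142-5p, 0.08 away, miR-17-5p of the miR-17-92 cluster, 0.22 away, and miR-21, 0.27 away. Those most like miR-146a were miR-500 at 0.01, miR-322 at 0.02 and miR-425 at 0.05. Of the miRNAs nearest to miR-146b, miR-142-5p and miR-17-5p had uninjured signals of 10.0 and 7.78, below its own 14.6, and miR-21 one of 1065. The highest undetected signal on that array was 8.84, so the ratios of miR-142-5p and miR-17-5p rest on signals near the floor. The members are not among each other's nearest 3. With 2 arrays, likeness is a single number per miRNA and many miRNAs are alike near the middle of the distribution.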

How the data were processed

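Total RNA from carotid artery was given a Cy3 label with Agilent's miRNA kit, per the labels. The authors' deposited files hold 1 signal intensity, on a linear scale, and 1 flag (0 or 1, read as detection) per feature, for 350 rat miRNAs and 22 control features. On each array 109 miRNAs are listed at exactly 1. How the scans were turned into these values (software, background, normalization) is not given in the sources here. The deposited value table holds a ratio that equalled the injured intensity over the uninjured one for 349 of 349 shared names (relative tolerance 1e-05).

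From the log2 intensities of an array, their 75th percentile among the 158 miRNAs detected on both arrays was subtracted (intensities of 401 uninjured and 377 injured). This raised every log2 ratio by 0.09. A miRNA detected on 1 array has a bound: its bright signal is divided by its own dim signal or, if larger, by the lowest signal detected on the dim array, after scaling. The 2-fold threshold is descriptive. Precision is limited by there being 1 array per group, and no p-value is given.

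The named miRNAs are the family, the listed miRNAs, the 3 nearest in ratio and the 5 neighbours in uninjured signal on each side (given as a range). Members and lists were chosen with earlier results of these data known, so no list supports a result. The scaling code was checked on simulated data without noise, with as many miRNAs raised as lowered. That check does not say which scaling is right for these arrays. The table of RefSeq mature sequences matched 255 of the 350 array names, an arm being added where needed, and both family members. Python 3.11.15, numpy 2.4.6, pandas 2.3.3 and matplotlib 3.10.9 were used.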

Additional observations from a re-analysis of the deposited data

How the results depend on the processing

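No alternative stands in for replicates. No paired analysis was possible because each group has 1 array and no value comes from a test. In the 9 alternatives, 8 planned and 1 added after seeing the data (summed miRNA signal aligned), miR-146b stayed at least 2-fold higher, miR-146a stayed positive and under 2-fold, and their difference ranged from 1.27 (10 units added before log2) to 1.79. Leaving out miRNAs below the highest undetected signal cannot change a member's ratio, and the authors' table repeats the unscaled ratio, so these add no separate check. The leukocyte and NF-kB repressor counts of members at least 2-fold higher were 3 and 1 in each. The NF-kB induced count was 1 after alignment at the medians, at the 75th percentile of all miRNAs or on the control features. All miRNAs at least 2-fold higher and lower numbered 8 and 16 after alignment at the medians, 7 and 20 at the 75th percentile of all miRNAs, 12 and 11 by quantile normalization and 7 and 23 on the control features. With 10 units added, 2 were lower. These settings moved the median log2 ratio of the 158 by -0.44, -0.50, -0.17, -0.59 and -0.021. Signal over background limits the ratio of miR-146b, whose uninjured signal was 1.65 times the highest undetected one.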
